A study of Homo sapiens with 6 samples.

Results

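VCAM1 and 9 other cell adhesion molecules of the immunoglobulin superfamily were followed in 12Z cells after knockdown of the long non-coding RNA LINC01133. The 10 genes were chosen by name from the 60660 genes counted in each library, and were VCAM1, ICAM1, ICAM3, ALCAM, MCAM, L1CAM, CADM1, CADM3, IGSF9 and IGSF8. The last 3 of these lie on chromosome 1 near LINC01133 itself. 12Z is an established line of epithelial cells from endometriosis, a disease in which tissue resembling the lining of the uterus grows outside it. RNA-sequencing was performed on 3 libraries of cells given a non-targeting control siRNA and on 3 of cells given siRNA LINC01133a at 10 nM, all collected 72 h after transfection. Only this siRNA was sequenced, so loss of LINC01133 and any other action of the siRNA cannot be told apart. The study calls the libraries of a group biological replicates, the labels do not say whether they came from separate cultures, and p-values measure only the spread between these libraries.

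Cell adhesion molecules of this superfamily are membrane proteins whose outer part is built of immunoglobulin-like domains. VCAM1 and the ICAMs are ligands of integrins, through which leukocytes hold on to endothelial and other cells, and VCAM1 and ICAM1 are classical targets of the transcription factor NF-κB. ALCAM, MCAM, L1CAM and the CADM proteins bind their own kind or each other on neighbouring cells, and L1CAM is also studied as a marker of endometrial carcinoma. IGSF9 is known for its part in dendrites and synapses, whereas IGSF8 associates with tetraspanins, small membrane proteins that gather integrins.

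The sequences of the siRNA are given first because the knockdown rests on them and because an siRNA can also act on other transcripts through the seed of its guide strand, bases 2 to 8, shown in capitals. The target of 19 bases lies on the plus strand at chr1:159976669-159976687 of GRCh38 and is present in 3 of the 5 annotated transcripts of LINC01133. The best partial match to it in any of the 10 adhesion molecules had 5 mismatches.
Guide strand of siRNA LINC01133a: uCCAUUCUcagguaacuucaa
Target in LINC01133: gaagttacctgagaatgga

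LINC01133 (ENSG00000224259.7, chr1:159958035-159984750, plus strand) had normalized counts of 813, 818 and 837 in control libraries and 129.7, 131 and 138 in knockdown libraries. The groups lay far apart, and 16.1% of the control level remained. The depth was 27742562 to 37551194 counts on genes per library, and mitochondrial genes took 3.03 to 4.10% of them in control and 4.72 to 5.05% in knockdown libraries. The keratins of epithelial cells (KRT7, KRT8, KRT18 and KRT19) were abundant, EPCAM was near 0, at most 0.28 RPKM (counts scaled to exon length and library size), and the stromal genes VIM, COL1A1 and COL3A1 were abundant as well. The summed level of 7 epithelial markers was 1569 to 1659 RPKM in control and 994 to 1031 in knockdown libraries, and that of 6 stromal markers was 1213 to 1295 and 1132 to 1155. Single markers differed. The keratins were at 54.5 to 68.1% of control, CDH1 at 24.6%, and MUC1 (88.3%) and EPCAM (124%) had overlapping groups. Of the stromal markers, MME, at most 1.82 RPKM in control, was higher at 176%, and COL3A1 was at 103.9%. CDH2 (44.6%), VIM (74%), PDGFRB (79.9%) and COL1A1 (93.6%) were lower, COL1A1 in overlapping groups. In bulk RNA, fewer cells of a type and less RNA per cell cannot be told apart.

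Of the 10 adhesion molecules, 5 changed by the quasi-likelihood (QL) test of edgeR, with p-values adjusted after Benjamini and Hochberg (BH) for all 15155 genes tested and a threshold of 0.05. Of all genes tested, 48.3% did so. VCAM1, ICAM1, MCAM and IGSF9 fell, against 25.0% of all genes that were lower, and IGSF8 rose, against 23.3% that were higher. The fold change was over 1.5, the cutoff of the study for a differentially expressed (DE) gene, for VCAM1, MCAM and IGSF9, that is 3 of 10 against 11.7% of all genes. In 4 of the 10 genes the control and knockdown libraries did not overlap, which was so for 57.3% of all genes. The median log2 fold change of the 10 was -0.060, and that of all genes tested was 0.0032. The former ran from -0.11 (control replicate 3 left out) to -0.027 (control replicate 2 left out), with -0.10 and -0.034 when knockdown replicate 1 and knockdown replicate 3 were left out. Scaling by library size alone put it at 0.0026, and all genes at 0.065. All 10 genes passed the filter on low counts.

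**Figure D1:**
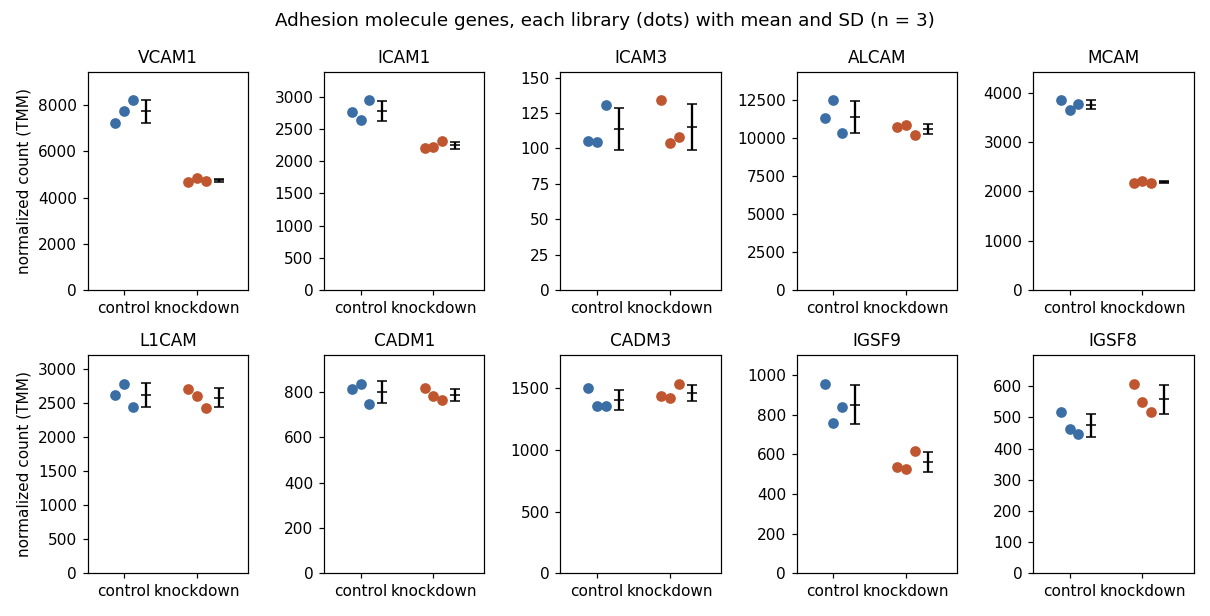
Normalized counts (y axis, from 0, with its own scale in each panel) of the 10 adhesion molecules in the control and knockdown libraries (x axis). Dots are libraries, and bars give the mean and SD of 3. The groups stand apart in VCAM1, ICAM1, MCAM and IGSF9 and overlap in the other 6 genes, in IGSF8 by 1 library of each group (516.9 in control, 516.2 in knockdown).

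VCAM1 (ENSG00000162692.12, chr1:100719742-100739045, plus strand), the ligand of integrin α4β1, lies 59219 kb from LINC01133 on the same chromosome. Its normalized counts were 7207, 7757 and 8196 in control libraries and 4690.2, 4829 and 4697 in knockdown libraries. Each knockdown library was below each control library, and the knockdown libraries lay closer together. The mean went from 7720 ± 496 to 4739 ± 78.3 (SD, n = 3 each), so that 61.4% was left. On the log2 scale the fold change was -0.70 (SE 0.046; edgeR QL test, BH-adjusted p = 6.4e-08), and it stayed between -0.75 and -0.64, past the DE cutoff, in all 12 alternative analyses. VCAM1 is among the genes that the study itself picked out of these libraries, so its direction is not independent evidence.

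VCAM1 is best known as a molecule of activated endothelium, so endothelial markers were read beside it. Of 6 markers, PECAM1, CLDN5 and TEK had at most 5 counts in any library. The summed level of all 6 was 7.76 to 7.91 RPKM in control and 5.43 to 5.78 in knockdown libraries, most of it from KDR, which fell (log2 fold change -0.68, edgeR adjusted p = 5.6e-08). CDH5, the cadherin of endothelial junctions, rose from a normalized count of 63.4 ± 4.56 to one of 174 ± 17.8 (SD, n = 3 each, edgeR adjusted p = 1.4e-06). Of 5 leukocyte markers, CD3E was at 0 and PTPRC, CD68 and ITGB2 were at most 0.056 RPKM, while CD14 was at 29.9 to 33.7 RPKM in control and 15.5 to 16.7 in knockdown libraries. The part of these genes in the fall of VCAM1 was not tested.

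The 250 bases before the start of VCAM1 and of ICAM1 are shown because both promoters are known for sites of NF-κB. Capitals mark matches, on either strand, to GGGNNTNCC or GGNNNTTCC, which are short forms of the NF-κB site and can overlap each other. The sequences are those of RefSeq on GRCh38.p14, which has promoters for 9 of the 10 genes, at chr1:100719492-100719741 and chr19:10270870-10271119, both on the plus strand.
VCAM1 promoter: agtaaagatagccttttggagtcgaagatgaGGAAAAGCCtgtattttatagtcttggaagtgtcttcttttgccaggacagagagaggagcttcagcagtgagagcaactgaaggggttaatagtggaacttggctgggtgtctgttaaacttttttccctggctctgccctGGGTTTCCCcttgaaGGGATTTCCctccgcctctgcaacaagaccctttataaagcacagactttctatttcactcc
ICAM1 promoter: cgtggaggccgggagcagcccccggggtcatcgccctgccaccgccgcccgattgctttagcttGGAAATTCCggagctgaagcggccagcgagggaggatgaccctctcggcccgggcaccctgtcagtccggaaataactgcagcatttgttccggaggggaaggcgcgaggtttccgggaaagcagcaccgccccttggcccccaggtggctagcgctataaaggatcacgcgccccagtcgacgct

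In VCAM1, GGGTTTCCC began 77 bases and GGGATTTCC 62 bases before the start, 15 bases apart, and GGAAAAGCC, a match on the minus strand, began 219 bases before it. In ICAM1, GGAAATTCC began 186 bases before the start and matched on both strands. The starts here are those of RefSeq. For ICAM1 the bases shown end at chr19:10271119, past the gene start of chr19:10271093 in GENCODE. Within the full window of 300 bases, which runs 50 bases past the start, GGGNNTNCC was found in 20.5% and GGNNNTTCC in 20.1% of 35116 promoters. The same letters also occurred at a start of MCAM, ICAM3, L1CAM and IGSF9, and at none of ALCAM, CADM3 and IGSF8. A match in such a window is a description of the letters only.

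ICAM1 (ENSG00000090339.9, chr19:10271093-10286615, plus strand) is the ligand of the leukocyte integrins LFA-1 and Mac-1. Its normalized counts were 2759.5, 2643 and 2943 in control libraries and 2203, 2223 and 2305 in knockdown libraries. The groups did not overlap, and the mean went from 2782 ± 151 to 2244 ± 54.3 (SD, n = 3 each), or 80.6% of control. On the log2 scale the fold change was -0.31 (SE 0.045; edgeR QL test, BH-adjusted p = 8.3e-05), short of the DE cutoff. It lay between -0.35 and -0.25 and passed the test in all 12 alternative analyses.

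ICAM3 (ENSG00000076662.10, chr19:10333776-10339661, minus strand), known as an ICAM of resting leukocytes, was the least abundant of the 10. Its normalized counts were 105.1, 104.8 and 130.6 in control libraries and 133.9, 103.9 and 107.8 in knockdown libraries. The groups overlapped, with 1 high library in each. The log2 fold change was 0.032 (95% interval -0.27 to 0.34, edgeR adjusted p = 0.87) and its interval was the widest of the 10. The opposite strand of ICAM3 carries the lncRNA ENSG00000274425, which had 57 to 101 counts per library. Counts assigned to ICAM3 on that other strand came to 57.4% of those on its own, against at most 0.543% for the other 9 genes.

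Antisense genes also overlap ICAM1 (LIMASI and ICAM4-AS1) and CADM3 (CADM3-AS1 and AIM2). Others lie opposite to MCAM (CBL, 3937 to 5517 counts per library), L1CAM and CADM1. When strand was ignored, reads in such overlaps were left out as ambiguous, and ICAM1 kept 59.2%, CADM3 37.9% and ICAM3 0.290% of its strand-specific counts, while the other 7 kept about all. ICAM3 was then not testable. The antisense genes over ICAM1 and CADM3 had at most 8 counts of their own in any library, so these reads were on the strand of ICAM1 and CADM3.

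**Figure D2:**
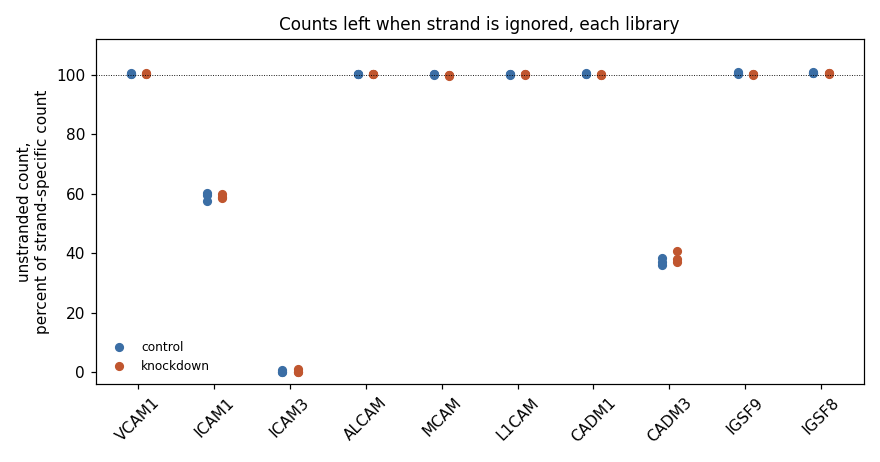
Unstranded count as a percentage of the strand-specific count (y axis) for each adhesion molecule (x axis), with 1 dot per library. Values are near 100% except in ICAM1 (59.2% over all libraries), CADM3 (37.9%) and ICAM3 (0.290%), alike in control and knockdown libraries.

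MCAM (ENSG00000076706.17, chr11:119308529-119321521, minus strand), also named CD146, is a receptor of laminins that is known from endothelial cells and melanoma. It had normalized counts of 3843, 3654 and 3770.1 in control libraries and 2166, 2209 and 2176 in knockdown libraries. No libraries overlapped, and the spread was small in both groups. The mean went from 3756 ± 95.4 to 2184 ± 22.7 (SD, n = 3 each), 58.1% of control and the lowest share among the 10 genes. This gave a log2 fold change of -0.78 (SE 0.038; edgeR QL test, BH-adjusted p = 4.8e-09). It lay between -0.80 and -0.72, past the DE cutoff, in all 12 alternative analyses.

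MCAM and IGSF8 were the only 2 of the 10 genes whose annotated 3′ UTR (the transcript chosen as canonical) holds a match to the seed of the siRNA guide, AGAATGG, and they moved in opposite directions. The sites are shown with 10 or more bases on each side and the match in capitals, and none of them extends to the 8-base form AGAATGGA. They lie on the minus strand of GRCh38 at chr11:119309063-119309090, chr11:119308711-119308738 and chr1:160091479-160091506.
MCAM site 1: ctgaagcaggAGAATGGtatgaatccag
MCAM site 2: cccaaatgagAGAATGGtacttagggat
IGSF8 site: cccactacccAGAATGGgagacgtgcct

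Of 12538 tested genes with an annotated 3′ UTR, 17.1% had such a match and 3.23% had 2 or more. The median log2 fold change was -0.094 for genes with a match and 0.0014 for genes without. These groups were not matched for UTR length (median 1365 bases over all of these genes) or for level. VCAM1, ICAM1 and IGSF9, the other genes that fell, had none in UTRs of 762, 1328 and 304 bases. The part of the seed in the fall of MCAM was not tested.

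ALCAM (ENSG00000170017.12, chr3:105366909-105576900, plus strand), also named CD166, binds CD6 and other ALCAM molecules. Its normalized counts were 11319, 12459.9 and 10345 in control libraries and 10703.5, 10867 and 10198 in knockdown libraries. The groups overlapped, and the log2 fold change was -0.10 (95% interval -0.22 to 0.018, edgeR QL test, BH-adjusted p = 0.15). The call depended on the lowest control library, since without control replicate 3 the value was -0.16 (adjusted p = 0.014 by edgeR), and without a filter on low counts it passed narrowly (-0.10, adjusted p = 0.049 by edgeR).

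L1CAM (ENSG00000198910.14, chrX:153861514-153886173, minus strand) had 2621, 2781 and 2432 normalized counts in control libraries and 2702, 2599.5 and 2427 in knockdown libraries. CADM1 (ENSG00000182985.18, chr11:115169218-115504957, minus strand), an adhesion molecule of epithelia and synapses, had 813, 836 and 745 in control libraries and 815.5, 783 and 763.5 in knockdown libraries. In both genes the groups overlapped widely. The log2 fold change was -0.018 for L1CAM (95% interval -0.13 to 0.098, edgeR adjusted p = 0.81) and -0.017 for CADM1 (95% interval -0.14 to 0.11, edgeR adjusted p = 0.83). Neither interval reaches the size of the fall in VCAM1 or MCAM.

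**Figure D3:**
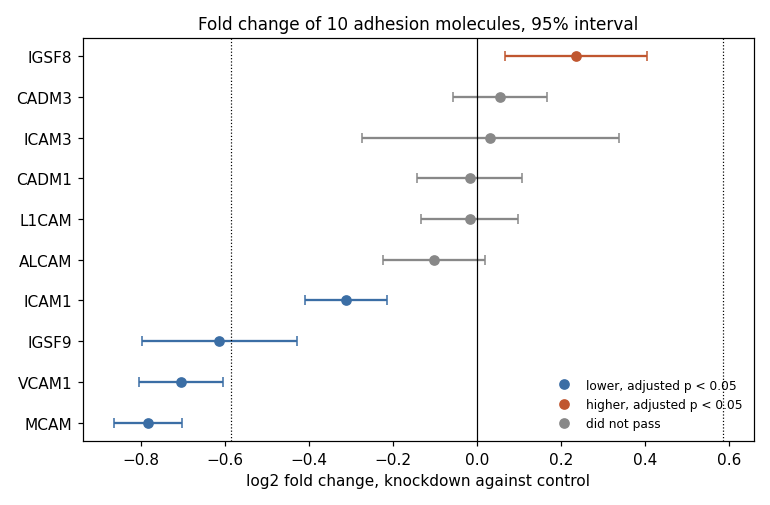
Log2 fold change of knockdown against control (x axis) for each adhesion molecule (y axis), with its 95% interval from edgeR and dotted lines at the 1.5-fold cutoff. MCAM (-0.78), VCAM1 (-0.70) and IGSF9 (-0.61) lie past the lower line, ICAM1 (-0.31) lies between it and 0, and IGSF8 (0.23) is the single gene that rose.

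IGSF9 is the nearest tested gene to LINC01133 (ENSG00000085552.17, chr1:159927039-159945613, minus strand), 12.4 kb away and read from the other strand. It had 957, 759 and 837 normalized counts in control libraries and 537, 526 and 617 in knockdown libraries. Every knockdown library was below every control library, although the control libraries spread widely. The mean went from 851 ± 99.6 to 560 ± 49.8 (SD, n = 3 each), 65.4% of control, for a log2 fold change of -0.61 (SE 0.085; edgeR QL test, BH-adjusted p = 5.6e-05). The gene passed this test in all 12 alternative analyses but stood so near the 1.5-fold cutoff that it was DE in 8 of them. It fell short of the cutoff with library size alone as scaling (-0.55), without control replicate 1 (-0.52), without knockdown replicate 1 (-0.58) and without knockdown replicate 2 (-0.57).

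IGSF8 (ENSG00000162729.14, chr1:160091340-160098943, minus strand), 106.6 kb from LINC01133 on its other side, had 516.9, 463 and 446.6 normalized counts in control libraries and 608.6, 550.6 and 516.2 in knockdown libraries. The highest control library just overlapped the lowest knockdown library. The mean went from 475 ± 36.7 to 558 ± 46.7 (SD, n = 3 each), for a log2 fold change of 0.23 (SE 0.078; edgeR QL test, BH-adjusted p = 0.025). The call was lost without control replicate 3 (0.19, adjusted p = 0.088 by edgeR) and without knockdown replicate 1 (0.17, adjusted p = 0.13 by edgeR). CADM3 (ENSG00000162706.13, chr1:159171609-159203313, plus strand), a neural CADM protein 754.7 kb away, had 1504, 1356 and 1362 normalized counts in control libraries and 1435, 1419.7 and 1539.6 in knockdown libraries. Its groups overlapped, and the log2 fold change was 0.055 (95% interval -0.058 to 0.17, edgeR adjusted p = 0.41).

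The other genes around LINC01133 give the setting for these 3. Within 1 Mb on either side, 86 genes are annotated and 19 were tested, of which 5 rose, 6 fell and 8 did not pass. Over all genes tested, 23.3% rose and 25.0% fell. The median log2 fold change of the 19 was 0.055. IGSF9 and TAGLN2, an actin-binding protein of the transgelin family 32.5 kb away (-0.47, edgeR adjusted p = 5.9e-07), fell on the side before the start of LINC01133, as did IFI16, a sensor of DNA, at 902.9 kb (-0.54, edgeR adjusted p = 1.1e-07). On the other side, PIGM, an enzyme of GPI anchor synthesis 40.2 kb away (0.38, edgeR adjusted p = 7.3e-05), rose, as did IGSF8, PEA15 (0.15), DCAF8 (0.34) and NCSTN, a subunit of γ-secretase (0.30). COPA (-0.14), PEX19 (-0.13) and ITLN1 (-1.06) fell there. The last 2 calls were lost in 7 (PEX19) and 4 (ITLN1) of the 12 alternative analyses. PEX19 did not pass without control replicate 1 or any 1 of the knockdown libraries (-0.14 to -0.11), and ITLN1 did not without control replicate 1 or 3 or knockdown replicate 1 or 2 (-0.9997 to -0.74). PEX19 and COPA did not pass with library size alone as scaling. IGSF9 and ITLN1 were the 2 DE genes among the 19, against 11.7% of all genes tested.

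**Figure D4:**
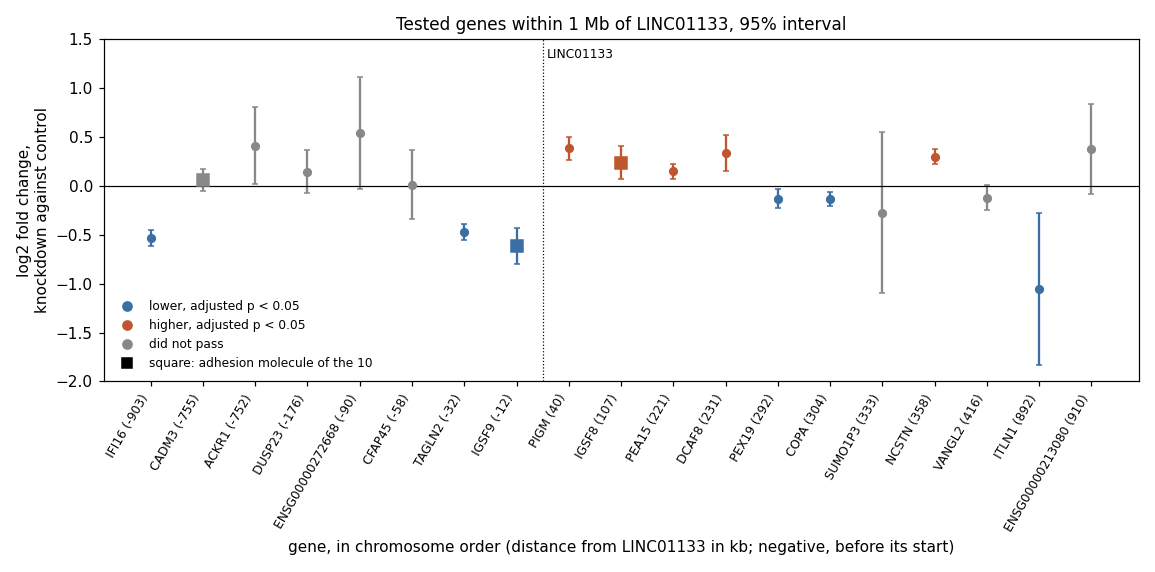
Log2 fold change with its 95% interval (y axis) of the 19 tested genes within 1 Mb of LINC01133, in chromosome order (x axis, with the distance in kb). Colours give the test result and squares mark IGSF9 (-0.61), IGSF8 (0.23) and CADM3 (0.055), and genes that rose and fell stand next to each other.

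Levels between genes were compared as RPKM, which divides by the joint length of all annotated exons of a gene. Where the cells use shorter transcripts the value comes out too low, so the order below holds for this length only. In control cells ALCAM was the most abundant of the 10 at 49.0 ± 4.56 RPKM, followed by VCAM1 at 39.4 ± 2.53, ICAM1 at 24.9 ± 1.36 and MCAM at 15.6 ± 0.397 (SD, n = 3 each). CADM3 at 11.3 ± 0.674 and L1CAM at 11.1 ± 0.743 overlapped and had no order. Below them came IGSF8 at 5.67 ± 0.438, IGSF9 at 3.96 ± 0.464, CADM1 at 2.25 ± 0.133 and ICAM3 at 1.26 ± 0.164, without overlap between neighbours. LINC01133 itself stood at 6.82 ± 0.106 RPKM, between L1CAM and IGSF8, for a joint exon length of 3725 bases. Its transcripts that hold the siRNA target are 1291 to 1454 bases long, and its value would be higher over such a length. In knockdown cells VCAM1 was at 24.2 ± 0.400 and ICAM1 at 20.1 ± 0.486 RPKM, still in the same order, while MCAM at 9.09 ± 0.0943 was now below L1CAM at 10.95 ± 0.592.

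The 5 genes whose scaled counts (log2 CPM) followed VCAM1 most closely over the 6 libraries, in a set limited to mean normalized counts of 100 and more, were GFOD1, USP8, POPDC3, ADH5 and FAM20B (Pearson r from 0.9988 to 0.9998). Of the adhesion molecules, MCAM (0.98), ICAM1 (0.96) and IGSF9 (0.88) were nearest and IGSF8 (-0.83) was the most opposed. These values describe 6 libraries in 2 groups, so any gene with a clear difference between the groups gets a high r. The log2 fold changes of the 5 genes ran from -0.80 (GFOD1) to -0.24 (USP8).

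Among 59 other adhesion molecules of the superfamily, 34 were tested, of which 8 rose, 16 fell and 10 did not pass. Over all genes tested, 23.3% rose and 25.0% fell. The median log2 fold change of the list was -0.13. The largest rises were those of MPZL3 from 13.6 ± 2.94 to 99.0 ± 16.5 normalized counts (log2 fold change 2.88, edgeR adjusted p = 2.9e-07), and of CNTN5, a contactin of neurons, from 34.7 ± 2.24 to 74.6 ± 4.69 (1.10, edgeR adjusted p = 8.9e-05; SD, n = 3 each). MPZL3 had the highest log2 fold change of all 15155 genes tested. The largest falls were those of NFASC, a partner of ankyrins in axons, from 24.6 ± 7.16 to 12.0 ± 1.11 (-1.04, edgeR adjusted p = 0.011), and of NTM, a GPI-anchored molecule of neurons, from 69.2 ± 11.5 to 37.8 ± 3.59 (-0.89, edgeR adjusted p = 0.0011). NFASC did not pass without control replicate 1 (-0.85, edgeR adjusted p = 0.062). The 25 members not tested included ICAM2, ICAM4 and PECAM1, each with at most 10 counts in any library.

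Of 19 binding partners, 10 were tested, of which 1 rose, 5 fell and 4 did not pass. Over all genes tested, 23.3% rose and 25.0% fell. The median log2 fold change of the list was -0.16. It was -0.062 when control replicate 1 was left out, and -0.090 and -0.085 when knockdown replicate 1 and knockdown replicate 2 were. ITGA4, the α subunit of the integrin that VCAM1 binds, fell from a normalized count of 392 ± 45.4 to one of 326 ± 24.4 (SD, n = 3 each, log2 fold change -0.26, edgeR adjusted p = 0.036), and its partner ITGB1 was at 0.046 (edgeR adjusted p = 0.36). ITGA4 did not pass in 5 of the 12 alternative analyses, namely with library size alone as scaling and without control replicate 2 or 3 or knockdown replicate 1 or 3 (-0.27 to -0.17), while ITGB1 passed with library size alone (0.11). LAMA4, the laminin chain bound by MCAM, fell as well (-0.23, edgeR adjusted p = 2.5e-04). The tetraspanins parted, with CD82 (-1.03, edgeR adjusted p = 3.8e-09) and CD9 (-0.71, edgeR adjusted p = 1.1e-08) lower, CD151 higher (0.21, edgeR adjusted p = 0.0022) and CD81 at -0.085 (edgeR adjusted p = 0.080), which did not pass. The integrins of leukocytes that bind ICAM1 and ICAM3 (ITGAL, ITGAM, ITGAX, ITGAD and ITGB2) had at most 10 counts in any library, and CD6, the receptor of ALCAM, at most 5. ITGA4 and LAMA4 were named for their tie to VCAM1 and MCAM after their values were seen.

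A list of 19 proteins link the tails of these molecules to the cytoskeleton or shed their outer parts. Of these, 18 were tested, of which 2 rose, 10 fell and 6 did not pass. Over all genes tested, 23.3% rose and 25.0% fell. The median log2 fold change of the list was -0.15. ANK3, an ankyrin that holds L1-family molecules, fell from a normalized count of 250.02 ± 21.7 to one of 101 ± 18.7 (SD, n = 3 each, log2 fold change -1.30, edgeR adjusted p = 3.5e-06). EPB41L1, of the band 4.1 family that binds CADM proteins, fell too (-0.73, edgeR adjusted p = 3.2e-08), while EPB41 rose (0.20, edgeR adjusted p = 8.6e-04). The single DE gene that was higher, ANK2, had 14.9 ± 4.18 and 26.2 ± 9.33 normalized counts in overlapping groups (SD, n = 3 each, log2 fold change 0.85, edgeR adjusted p = 0.043), and it did not pass in 5 of the 12 alternative analyses, among them those without control replicate 1 (0.63) and knockdown replicate 1 (0.78) or 2 (0.64). EZR, a linker of VCAM1 and ICAM1 to actin, fell (-0.47, edgeR adjusted p = 9.8e-08), as did the sheddases ADAM10 (-0.19) and ADAM17 (-0.16). On the same list MSN (-0.21) and BACE1 (-0.14) fell, while RDX (0.022), ACTN1 (0.086), ACTN4 (0.036) and TIMP3 (0.091) did not pass. EZR and the genes after it were named once their values were seen, EZR, ADAM10 and ADAM17 for their ties to VCAM1.

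Since VCAM1 and ICAM1 are NF-κB targets, a list of 33 inputs, subunits and targets of that pathway was read beside them. It was matched for 32 genes and tested for 27, of which 3 rose, 12 fell and 12 did not pass. Over all genes tested, 23.3% rose and 25.0% fell. The median log2 fold change of the list was -0.20. This median rested on single libraries, since it was -0.10 when control replicate 1 and -0.069 when knockdown replicate 1 was left out. The receptor IL1R1 fell from a normalized count of 8017 ± 304 to one of 3258 ± 93.0 (SD, n = 3 each, log2 fold change -1.30, edgeR adjusted p = 1.2e-10), and the chemokine CXCL1 from 105 ± 24.9 to 47.9 ± 9.20 (-1.11, edgeR adjusted p = 4.7e-04). The DE genes of the list were 6 that fell (IL1R1, CXCL1, CXCL8, CXCL2, TNFAIP3 and TNFRSF1A) and 0 that rose. Of all genes tested, 11.7% were DE. Short of the DE cutoff, the targets IER3 (0.47, edgeR adjusted p = 0.0068) and TRAF1 (0.43, edgeR adjusted p = 0.036) rose. The call of TRAF1 was lost in 8 of the 12 alternative analyses and without any library but control replicate 1 (0.39 to 0.45). Of the subunits, NFKB1 (0.069), NFKB2 (0.078) and RELA (0.086) did not pass, REL rose (0.19, edgeR adjusted p = 0.013) and RELB fell (-0.29, edgeR adjusted p = 0.024). RELB did not pass with library size alone or without control replicate 1 or 3 or knockdown replicate 1 or 2 (-0.29 to -0.22), whereas RELA and NFKB1 passed with library size alone (0.15 and 0.13) and RELA also without knockdown replicate 3 (0.11). TNF, CCL20 and SELE, the last like VCAM1 a molecule of activated endothelium, had 0 counts in all 6 libraries, and IL6 had at most 2. The subunits, the genes at 0 and the DE genes other than IL1R1 and CXCL1 were named after their values were seen.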

How the data were processed

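Read pairs per gene, as raw counts, were deposited by the authors for 6 libraries of 12Z cells, without normalization. They were made with STAR 2.7.6a on GRCh38.p13 (SAMtools 1.10), per the submitters' processing notes, with the GENCODE 36 annotation. Library kit and sequencer differ between the study's methods and the labels. The strand column used by the study is not given in the sources used here. The column opposite to read 1 was used, which held 93.9 to 94.1% of stranded counts.

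The 15155 genes kept by filterByExpr (minimum count 10) were compared with edgeR 4.0.16 (R 4.3.3) using TMM normalization, the quasi-likelihood test with no term but condition, and Benjamini-Hochberg adjustment. The script was tested on simulated data. Normalized counts are counts scaled to the mean library size. RPKM uses the exon lengths of GENCODE 44, joined over all transcripts of a gene. GENCODE 44 also gave coordinates and 3′ UTRs.

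The adhesion molecules and gene lists were chosen with earlier results of these data known. Named genes were the 10 molecules, LINC01133, in each list the 2 highest and 2 lowest log2 fold changes that passed, genes within 1 Mb of LINC01133 that passed, and the 5 genes most like VCAM1, besides those stated. Marker genes were read as levels, and 1 leukocyte marker is not reported here. Alternatives were DESeq2 1.42.0, 2 other scalings, no filter, the unstranded column, a replicate block and each library left out.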

Additional observations from a re-analysis of the deposited data

How the results depend on the processing

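Each of the 12 alternatives kept VCAM1, ICAM1, MCAM and IGSF9 lower and past the test, and 4 to 6 of the 10 adhesion molecules passed. Small values changed sign without passing. Over fits that each left out 1 library, the log2 fold change of ICAM3 ran from -0.097 to 0.15, that of L1CAM from -0.064 to 0.027 and that of CADM1 from -0.062 to 0.013, and with library size alone as scaling L1CAM and CADM1 were both at 0.045. ALCAM ran from -0.16 to -0.035 with each library left out and passed without control replicate 3, and it passed without a filter (-0.10). IGSF8 ran from 0.17 to 0.30 and did not pass without control replicate 3 or knockdown replicate 1. The cause was not tested. Library size alone moved the median of all genes by 0.062 and the share of DE genes that were higher from 45.2% to 55.9%. DESeq2 gave 6332 genes that passed and 1526 DE genes, against 7315 and 1778. List medians ran from -0.21 to -0.066 for the other adhesion molecules, from -0.16 to -0.013 for the partners, from -0.16 to -0.088 for the tail and shedding list and from -0.26 to -0.069 for the NF-κB list. Leaving out control replicate 1 or knockdown replicate 1 moved the partners and NF-κB medians by over 1.5 times, as did leaving out knockdown replicate 2 for the partners. The partners median moved most with no filter (-0.013). For the other adhesion molecules no filter (-0.21) and library size alone (-0.066) also did so, and for the tail and shedding list library size alone (-0.088). Libraries with the same number did not deviate together (r from -0.012 to 0.051, against -0.061 to 0.066 for unlike numbers). Values so near 0 cannot tell whether the libraries were paired. A replicate block gave 7251 genes that passed and 1747 DE genes, with 5 of the 10 adhesion molecules among those that passed. With 3 libraries a group, precision rests on their spread, and ICAM3, at about 100 counts, is the least precise of the 10.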
